A study of Mus musculus with 6 samples.

Results

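The genes described are 47 enzymes of amino acid breakdown and ammonia handling, chosen by gene symbol from the 55450 genes of the kidney count table. They cover ammonia and nitrogen exchange between amino acids, the breakdown of the branched-chain amino acids, propionate, glycine and serine, the methyl donors and cysteine, proline, and tyrosine. All 47 symbols matched a single gene of GENCODE mouse release 21 (assembly GRCm38), and all 47 had enough counts to be tested. Kidney mRNA was sequenced from 3 mice of the day-0 group and 3 mice of the day-21 group, all male wild-type C57BL/6J mice bought at 7 weeks of age and kept for 1 week before the study. The day-21 group received adenine (0.16 g/kg) with potassium oxonate (2.4 g/kg) once daily by gavage, a mixture that raises uric acid and injures the kidney. The day-0 group is the control, and its samples are labelled with 20% PEG, a vehicle. By the study's methods each group was killed on its named day. On that account the 2 groups differ by 21 days of age as well as by the agents, which cannot be told apart. Whether the day-0 mice were gavaged with the vehicle, and for how long, could not be settled from the sources used here. A difference in gavage itself may therefore add to these. The kidneys were divided for several uses, and which piece gave the RNA is not given in the sources used here.

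The proximal tubule of the kidney takes filtered amino acids back from the urine and breaks part of them down in its mitochondria. An aminotransferase first moves the amino group, mostly onto 2-oxoglutarate to form glutamate, and glutamate dehydrogenase can then release it as ammonia, which the kidney excretes to dispose of acid. The remaining carbon skeletons are cut by chains of dehydrogenases into acetyl-CoA, propionyl-CoA or intermediates of the citric acid cycle. A few of the 47 enzymes work in the other direction, since Phgdh, Psat1 and Psph make serine and Glul makes glutamine.

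The 6 libraries held between 10963849 and 14333311 counts. Levels are given as CPM, the counts of a gene normalised by edgeR to a common library total after TMM scaling. A gene was called lower or higher on day 21 when edgeR's quasi-likelihood test gave a Benjamini-Hochberg adjusted p under 0.05 over the 16592 genes tested and the fold change exceeded 1.5. Fold changes are given on the log2 scale as day 21 over day 0, with their standard error (SE). Mice are numbered 1 to 3 within each group as the labels number them, and the main test did not pair mice of different days by number. The edgeR p-values set the difference between the days against the spread between these mice.

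Messenger RNA of this enzyme set was broadly lower in the day-21 kidneys. Of the 47 genes, 42 (89.4%) were called lower, against 15.5% of all genes tested, and 1 (2.13%) was called higher, against 19.6% of all genes tested. The 4 genes that were not called were Gpt2, Bcat1, Shmt1 and Psph. The median log2 fold change of the 47 genes was -1.40, beside a median of 0.03 over all genes tested. In 33 of the 42 genes called lower the fall exceeded 2-fold, and in 7 it exceeded 4-fold. The 3 day-21 mice lay entirely outside the range of the 3 day-0 mice for 43 of the 47 genes (91.5%), against 57.1% of all genes tested. Scaling by library size alone raised the median of all genes to 0.42 and the share of all calls that were higher from 55.8% to 81.7%. With that scaling 33 of the 47 genes were called lower (70.2%, against 8.06% of all genes). The median of the 47 genes minus that of all genes was -1.43 with either scaling. A scaling factor moves the log2 fold changes of all genes by about the same amount, so this difference could hardly change and does not test the scaling.

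**Figure D1:**
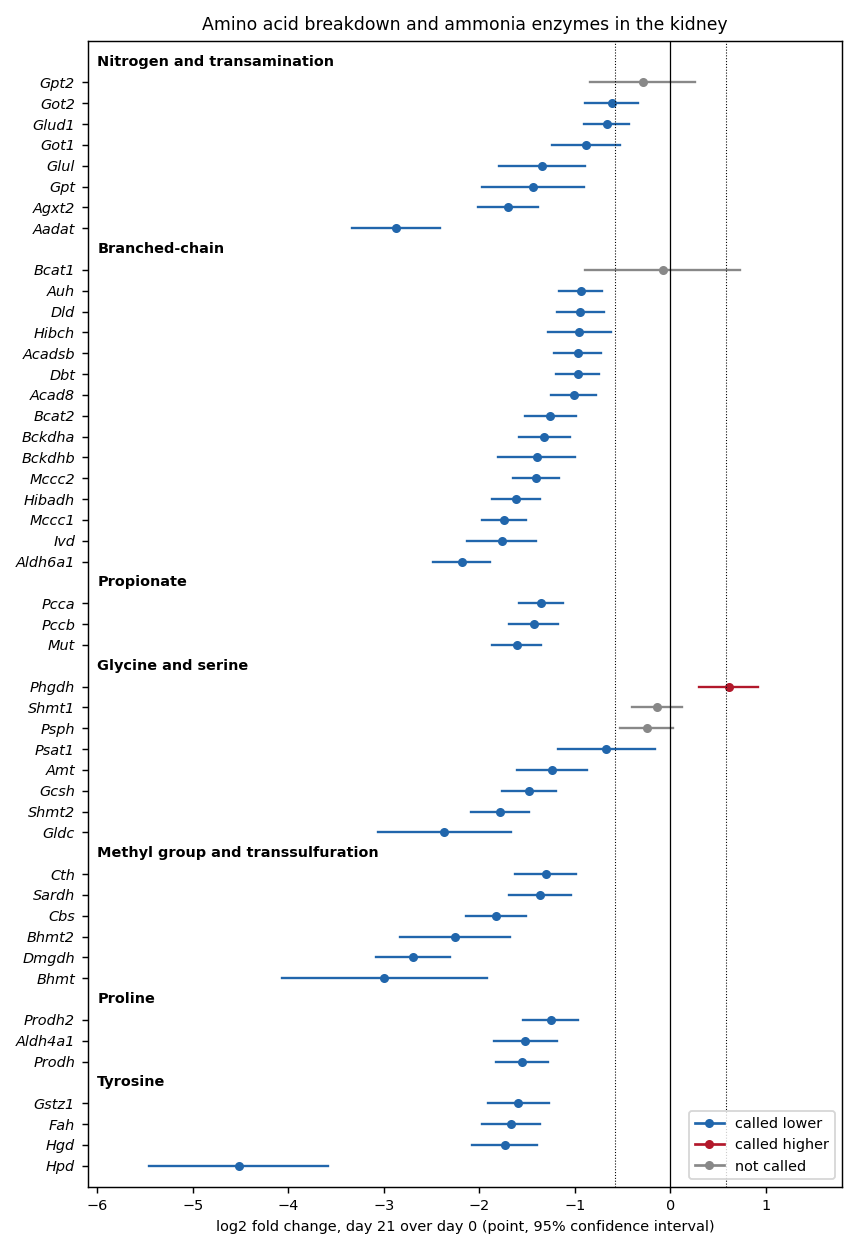
Log2 fold change of each of the 47 genes (day 21 over day 0, 3 mice each) with its 95% confidence interval from edgeR, in 7 groups by role. Dotted lines mark a 1.5-fold change. The 42 genes called lower lie to the left, with Hpd at -4.52 farthest out, and Phgdh at 0.61 is the single gene called higher.

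Added together, the 47 genes held 0.921%, 1.03% and 0.943% of the library counts of the day-0 group, by mouse, and 0.487%, 0.459% and 0.480% of those of the day-21 group. The summed level was 10430, 12140 and 10650 CPM on day 0 and 4357, 3924 and 4207 CPM on day 21. Every day-21 sum lay below every day-0 sum, and the day-21 mean was 0.376 of the day-0 mean (two-sided exact permutation test of 3 against 3 mice, p = 0.1, the smallest p this design allows). As a share of raw library counts the ratio of the means was 0.492. Aldh6a1 had the highest CPM of the 47 genes on day 0, and without it the ratio was 0.395.

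**Figure D2:**
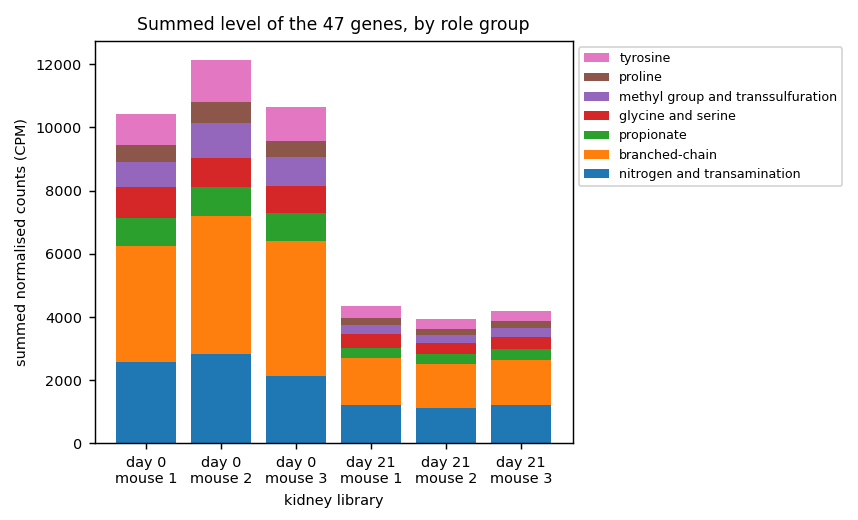
Summed CPM of the 47 genes in each of the 6 kidney libraries, with bars divided by role group. The bars reach 10430 to 12140 CPM for the day-0 group and 3924 to 4357 CPM for the day-21 group, and every role group is smaller in the day-21 bars.

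Proximal tubule cells are the main site of many of these enzymes, and their markers fell too. All 10 of 10 proximal tubule markers examined, among them Lrp2, Slc34a1 and Slc5a2, were called lower, with a median log2 fold change of -1.99. Their summed level ran from 11860 to 13590 CPM on day 0 and from 2381 to 2992 CPM on day 21, and no defining marker was at 0. Markers of the loop of Henle and distal tubule (4 of 5 called lower) and of the collecting duct (4 of 5 called lower) fell less by the median, to -1.13 and -1.17. Single genes of these 2 lists ranged widely. Pvalb went from 214, 317 and 122 counts on day 0 to 0, 0 and 1 on day 21 (-9.36), and Slc4a1 changed by -2.97. Umod (-0.45) and Scnn1g (0.23) were the genes not called. Injured tubule markers, among them Havcr1 and Lcn2, rose in 5 of 5 genes, with a median log2 fold change of 4.72 and sums of 24.8 to 62.0 CPM on day 0 and 1924 to 2317 CPM on day 21. Podocyte markers were called lower in 3 of 4 genes. Fibroblast markers rose in 5 of 5 genes, from sums of 166 to 272 CPM up to 1092 to 2030 CPM, and macrophage markers in 5 of 5 genes, from sums of 115 to 145 CPM up to 539 to 650 CPM. The part of this shift in cell markers in the changes of the 47 genes was not tested. In bulk kidney RNA, fewer cells of a type and less RNA per cell cannot be told apart. Liver is rich in several of these enzymes. Of 8 hepatocyte markers, 3 (Hamp, Cyp1a2 and Mup20) were at 0 counts in every mouse, 3 could be tested, and 2 of these were called lower, Alb (-2.82) and Apoa2 (-1.11). Alb measured 7.02, 7.58 and 6.29 CPM on day 0 and 1.34, 1.01 and 0.613 CPM on day 21. The sum of all 8 ran from 13.04 to 19.2 CPM on day 0 and from 3.52 to 7.21 CPM on day 21, and its part in the levels of the 47 genes was not tested.

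The mice of a group differed among themselves, more so on day 0. The coefficient of variation over the 3 mice had a median of 14.2% across the 47 genes on day 0 and 7.71% on day 21. Day-0 mouse 2 had the highest value for 31 of the 47 genes and day-0 mouse 1 the lowest for 28. On day 21, mouse 1 was highest for 27 and mouse 2 lowest for 30. The summed proximal tubule markers had the same extremes, with the highest day-0 sum in mouse 2 (13590 CPM), the lowest in mouse 1 (11860 CPM), the highest day-21 sum in mouse 1 (2992 CPM) and the lowest in mouse 2 (2381 CPM). Single markers did not all follow the sum. On day 0, Lrp2, Cubn and Slc5a12 were highest in mouse 1, Slc22a6 in mouse 3 and the other markers in mouse 2. Leaving out each mouse in turn gave between 41 and 42 genes called lower.

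**Figure D3:**
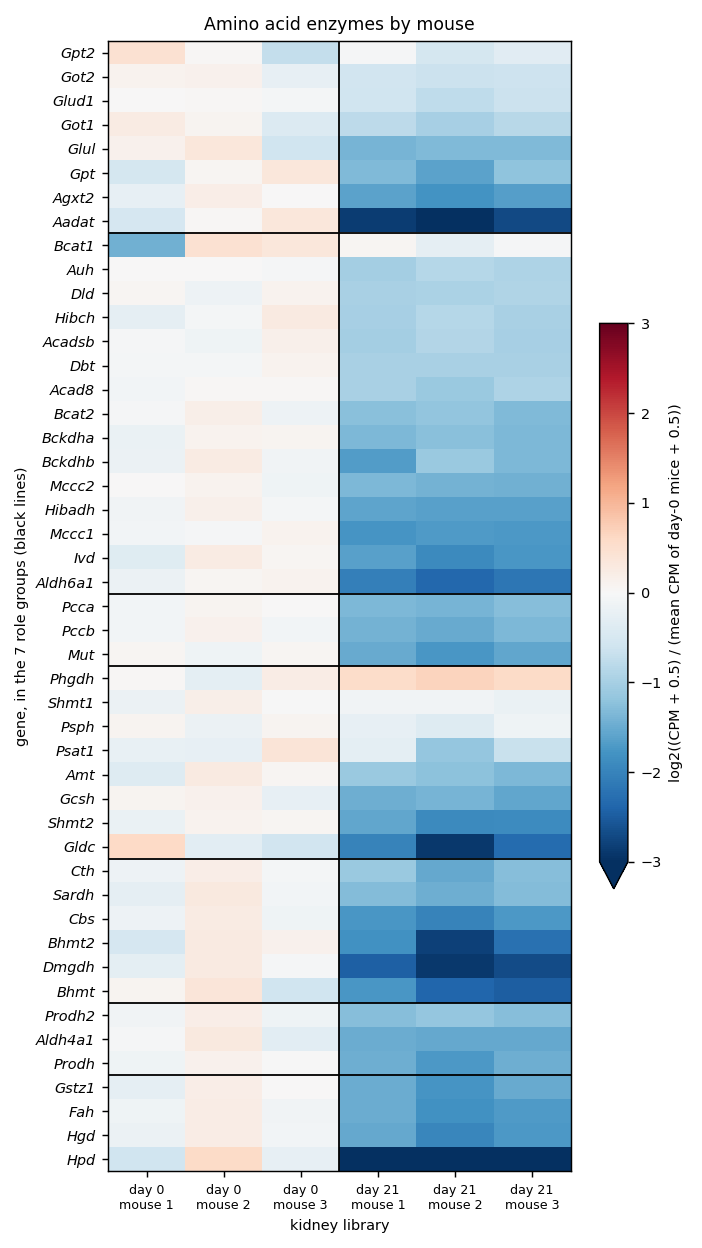
Level of each gene in each mouse as log2 of (CPM + 0.5) over the mean of the day-0 mice (+ 0.5), with black lines between the role groups and between the days. The day-21 columns are blue in nearly every row, Phgdh is red in the 3 day-21 mice, and Bcat1 and Gldc show the spread between day-0 mice.

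Among the 8 enzymes of nitrogen exchange, 7 were called lower and none higher, with a median log2 fold change of -1.11. Glul (ENSMUSG00000026473.15, chr1:153899944-153909723) encodes glutamine synthetase, which fixes ammonia onto glutamate. It had the highest level per length of the 47 genes on day 0, at 268 CPM per kilobase of exon. Its values were 966, 1119 and 586 CPM on day 0 and 338, 356 and 357 CPM on day 21, a log2 fold change of -1.35 (SE 0.20, edgeR, adjusted p = 0.000414). Day-0 mouse 3 was far below the other day-0 mice, yet above all day-21 mice, and without it the log2 fold change was -1.59. The same mouse had the lowest sum of podocyte markers of the day-0 group (342 CPM, against 500 and 552 CPM), and the part of this difference in the Glul value was not tested. Glud1, glutamate dehydrogenase, which releases ammonia from glutamate, fell less, by 0.67 on the log2 scale (SE 0.11). Its call was lost under the scalings by upper quartile (-0.58) and by library size alone (-0.28). On day 21, Glul and Glud1 held the first and second places per length, at 105 and 79.2 CPM per kilobase.

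Aadat (ENSMUSG00000057228.6, chr8:60505932-60545677) encodes the aminotransferase of kynurenine and aminoadipate, products of tryptophan and lysine breakdown. It fell most of the nitrogen group, from 241, 355 and 435 CPM to 47.6, 40.9 and 52.2 CPM, a log2 fold change of -2.87 (SE 0.21, edgeR, adjusted p = 4.28e-06). The groups were far apart, with the lowest day-0 mouse above the highest day-21 mouse by a wide margin. Agxt2, a mitochondrial aminotransferase that also handles dimethylarginines, fell by 1.70. The aspartate aminotransferases fell less, with Got1 (cytosolic) at -0.88 and Got2 (mitochondrial) at -0.61 on the log2 scale. Got2 was just past the 1.5-fold limit, and 5 of 16 alternative analyses ended its call, among them leaving out day-0 mouse 1 (-0.58) or day-0 mouse 2 (-0.55). Got2 shares 32.3% of its 50-base words with other genes, among them the pseudogene Got2-ps1 (log2 fold change -0.77), so reads may have been divided between them.

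Promoters were searched because many of the 47 genes fell together and because HNF4 and HNF1 are transcription factors of the proximal tubule. RefSeq promoters (assembly GRCm38.p6, 250 bases before to 50 after the start) were at hand for 43 of the 47 genes, as 51 promoters, and not for Gpt, Dbt, Mut and Cth. The HNF4-specific motif CAAAGTCCA was looked for on both strands and stood in 3 of the 51 promoters (5.88%), against 0.475% of all 32851 promoters. These belonged to Aadat and to both starts of Agxt2, whose promoters overlap and share a single match, so there were 2 sites in 2 of 43 genes. The windows below are shown because they hold these matches, with the matched letters in capitals. Agxt2 was added after its values were seen. The Aadat window is chr8:60506042-60506070 (plus strand), with the match on the strand opposite to the gene and its first base 72 bases before the RefSeq start, within the first exon of a GENCODE transcript that starts earlier. The Agxt2 window is chr15:10358502-10358530 (plus strand), on the strand of the gene.
Aadat: cctctgtggaTGGACTTTGtcccttctgc
Agxt2: cttctaatatCAAAGTCCAgtccagtcag
The HNF1 motif GTTAATNAT stood in 2 of the 51 promoters (3.92%, Got2 and Prodh2), against 0.801% of all promoters. The amino acid response motif TGATGNAAT, a site of the ATF and C/EBP factors, stood in 0 of the 51 promoters, against 0.965% of all promoters. A match describes letters in a window and is not evidence of binding.

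The 15 genes of branched-chain amino acid breakdown held the largest summed level of the 7 groups, between 3674 and 4367 CPM on day 0 and between 1391 and 1476 CPM on day 21. Of these genes 14 were called lower and 1, Bcat1, was not called. Aldh6a1 (ENSMUSG00000021238.11, chr12:84430717-84451004), the methylmalonate semialdehyde dehydrogenase that ends valine breakdown, fell most and also had the highest level per length of the group on day 0, at 204 CPM per kilobase. It measured 1047, 1229 and 1264 CPM on day 0 and 287, 229 and 264 CPM on day 21, a log2 fold change of -2.18 (SE 0.13, edgeR, adjusted p = 2.07e-06). The mice of each day were close together and the days far apart. Of its exon bases, 18.6% lie in Bbof1 on the other strand, which was also called lower (-2.34), and whether the counting used strand is not given in the sources used here.

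The next steps of the pathway fell by different amounts. Among the subunits of the branched-chain keto acid dehydrogenase, which commits the keto acids to breakdown, Bckdha changed by -1.32, Bckdhb by -1.40, Dbt by -0.97 and Dld, a subunit shared with other complexes, by -0.94 on the log2 scale. Bckdha has 61.7% of its exon bases in B3gnt8 on the other strand, which was called lower as well (-1.20). In leucine breakdown, Ivd (isovaleryl-CoA dehydrogenase) changed by -1.77, the carboxylase subunits Mccc1 and Mccc2 by -1.74 and -1.41, and the hydratase Auh by -0.94. In valine and isoleucine breakdown, Hibadh, which oxidises 3-hydroxyisobutyrate, changed by -1.61, ahead of the dehydrogenases Acad8 (-1.01) and Acadsb (-0.97) and the hydrolase Hibch (-0.95). Scaling by library size alone ended the calls of Acadsb, Auh, Dbt, Dld and Hibch, and of Got1 in the nitrogen group, with values between -0.58 and -0.49.

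Bcat1 and Bcat2 encode the cytosolic and mitochondrial aminotransferases that take the amino group off leucine, isoleucine and valine. Bcat2 measured 168, 196 and 155 CPM on day 0 and 72.7, 76.5 and 68.4 CPM on day 21, a log2 fold change of -1.26 (SE 0.12, edgeR, adjusted p = 2.14e-05). Bcat1 measured 27.4, 103 and 95.6 CPM on day 0 and 78.0, 62.5 and 72.8 CPM on day 21, a log2 fold change of -0.08 with a 95% interval from -0.90 to 0.73 (edgeR, adjusted p = 0.871). Day-0 mouse 1 was far below all other mice for Bcat1 but not for Bcat2, and without it the Bcat1 log2 fold change was -0.50. That mouse also had the highest day-0 sum of injured tubule markers, 62.0 CPM against 28.4 and 24.8 CPM, and the part of this in its Bcat1 value was not tested.

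All 3 genes of propionate breakdown were called lower. Pcca and Pccb, the subunits of propionyl-CoA carboxylase, changed by -1.35 and -1.43 on the log2 scale. Pccb (ENSMUSG00000032527.13, chr9:100982032-101034898) had the highest level per length of the 3, at 158 CPM per kilobase on day 0, with 417, 484 and 417 CPM on day 0 and 163, 153 and 174 CPM on day 21. Mut (ENSMUSG00000023921.9, chr17:40934685-40961988), the B12-dependent mutase that passes methylmalonyl-CoA on to succinyl-CoA, measured 300, 262 and 299 CPM on day 0 and 100, 85.3 and 96.6 CPM on day 21 (log2 fold change -1.61, SE 0.12, edgeR, adjusted p = 4.28e-06). The days did not overlap for any of the 3 genes.

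The 8 genes of glycine and serine metabolism had the smallest median change of the 7 groups, -0.96 on the log2 scale, with 5 called lower, 1 higher and 2 not called. In this group, 3 genes of the mitochondrial glycine cleavage system were called lower. Their log2 fold changes were -2.37 for Gldc, the decarboxylase, -1.24 for Amt, the aminomethyltransferase, and -1.48 for Gcsh, the lipoyl carrier. Dld, counted with the branched-chain genes, also serves this system and changed by -0.94. Gldc (ENSMUSG00000024827.10, chr19:30098447-30175429) measured 391, 208 and 174 CPM on day 0 and 64.3, 34.4 and 51.4 CPM on day 21 (SE 0.31, edgeR, adjusted p = 0.000167). Gcsh, with the highest level per length of the group on day 0 (86.1 CPM per kilobase), measured 143, 150 and 115 CPM on day 0 and 48.6, 51.8 and 46.0 CPM on day 21. The Gldc values were uneven within each day, mouse 1 being highest on both, and still did not overlap.

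The 3 enzymes that make serine from a glycolytic intermediate did not move together. Phgdh (ENSMUSG00000053398.11, chr3:98313170-98339990), the first of them, was the only one of the 47 genes called higher, with 34.2, 27.1 and 38.9 CPM on day 0 and 48.8, 53.3 and 50.4 CPM on day 21 (log2 fold change 0.61, SE 0.14, edgeR, adjusted p = 0.00526). All 3 day-21 mice were above all 3 day-0 mice, but the fold change was barely past 1.5. The call was lost with RLE scaling (0.58), with DESeq2 (0.58), without day-0 mouse 2 (0.48) and without day-21 mouse 2 (0.57), while the direction held in all 16 alternatives. Phgdh shares 63.1% of its 50-base words with other genes, and its pseudogenes Gm7901, Gm9347 and Gm8341 had between 0 and 5 counts in each mouse. The counting program is not given, so these low counts cannot tell whether shared reads were dropped. Psat1, the second enzyme, was called lower by 0.67 (SE 0.23, edgeR, adjusted p = 0.0358), a call that 5 of 16 alternatives ended, among them leaving out day-0 mouse 3 (-0.45), day-21 mouse 2 (-0.47) or day-21 mouse 3 (-0.66). Psph, the last enzyme, measured 53.2, 44.1 and 53.4 CPM on day 0 and 42.6, 38.1 and 45.9 CPM on day 21, with overlapping groups (log2 fold change -0.25, edgeR, adjusted p = 0.127).

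Shmt1 and Shmt2 encode the cytosolic and mitochondrial enzymes that convert serine to glycine and load a carbon onto folate. Shmt2 measured 197, 245 and 236 CPM on day 0 and 76.1, 60.0 and 61.1 CPM on day 21, a log2 fold change of -1.78 (SE 0.14, edgeR, adjusted p = 6.39e-06). Shmt1 measured 48.6, 62.6 and 54.9 CPM on day 0 and 51.3, 51.2 and 48.5 CPM on day 21, a log2 fold change of -0.14 with a 95% interval from -0.40 to 0.12 (edgeR, adjusted p = 0.364). The Shmt2 groups were far apart, and all 3 day-21 values of Shmt1 lay within its day-0 range or just below it. Per kilobase of exon, Shmt2 went from 72.5 to 21.1 CPM and Shmt1 from 14.3 to 12.96 CPM.

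Forms or subunits of the same enzyme, and the related enzymes Prodh with Prodh2 and Bhmt with Bhmt2, were compared within each mouse for 9 pairs. The measure was the difference of their log2(CPM + 0.5) values. The smallest p that 3 against 3 mice allow is 0.1, so no pair could pass 0.05. Shmt1 minus Shmt2 was -2.0, -1.96 and -2.09 on day 0 and -0.57, -0.22 and -0.33 on day 21, a change of 1.64 with groups that did not overlap (two-sided exact permutation test, p = 0.1, adjusted p = 0.18 over 9 pairs). Bcat1 minus Bcat2 was -2.60, -0.93 and -0.69 on day 0 and 0.10, -0.29 and 0.09 on day 21, a change of 1.38 (exact permutation test, p = 0.1, adjusted p = 0.18). The size of the Bcat change rests in part on day-0 mouse 1, without which it was 0.78. In both pairs the mitochondrial form was lower relative to the cytosolic form on day 21. For alanine aminotransferase, the cytosolic form Gpt measured 11.7, 17.7 and 21.9 CPM on day 0 and 6.50, 5.31 and 7.11 CPM on day 21 (log2 fold change -1.44, SE 0.24, edgeR, adjusted p = 0.000764). The mitochondrial form Gpt2 measured 104, 77.2 and 45.8 CPM on day 0 and 73.9, 51.9 and 59.7 CPM on day 21 (log2 fold change -0.29, 95% interval -0.85 to 0.26, edgeR, adjusted p = 0.368). Here the cytosolic form was the one called lower, and the day-0 mice were spread so widely for the difference that the groups overlapped (change -1.11, exact permutation test, p = 0.2, adjusted p = 0.3). Without day-0 mouse 3 the change was -0.60, and without day-0 mouse 1 it was -1.62.

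**Figure D4:**
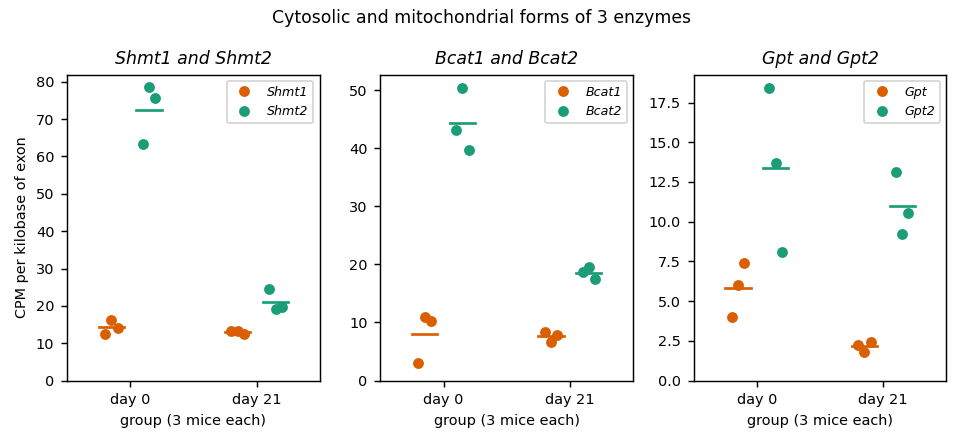
Level of the cytosolic and mitochondrial forms of 3 enzymes in each mouse, as CPM per kilobase of exon on a linear axis, by day. Shmt2 and Bcat2 drop from day-0 means of 72.5 and 44.4 to 21.1 and 18.6, Shmt1 lies at 14.3 and 12.96 and Bcat1 at 8.07 and 7.63, and Gpt drops from 5.82 to 2.14 beside Gpt2 at 13.4 and 10.96. Horizontal lines are the means of 3 mice.

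The other pairs moved by smaller amounts. The changes were -0.25 for Got1 minus Got2, -0.32 for Prodh minus Prodh2 and -0.34 for Mccc1 minus Mccc2, each with groups that did not overlap (exact permutation test, p = 0.1, adjusted p = 0.18). They were 0.065 for Bckdha minus Bckdhb, 0.080 for Pcca minus Pccb and 0.10 for Bhmt minus Bhmt2, with overlapping groups. For Got1 and Got2, unlike the Shmt and Bcat pairs, the cytosolic form (Got1) was lower relative to the mitochondrial form on day 21. The Bhmt value is not settled at these counts, since it was 0.95 with a pseudocount of 2 in place of 0.5 (groups not overlapping, exact permutation test, p = 0.1), while the difference of the edgeR log2 fold changes was -0.74. For Bcat1, Gpt2, Psph and Shmt1 the sign of the fold change itself turned positive under scaling by library size alone, at 0.31, 0.095, 0.14 and 0.25.

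The 6 genes of methyl group and cysteine metabolism had the lowest median of the 7 groups, -2.04, and all 6 were called lower. Bhmt and Bhmt2 remethylate homocysteine, Dmgdh and Sardh then take methyl groups off dimethylglycine and sarcosine, and Cbs and Cth turn homocysteine into cysteine. Bhmt (ENSMUSG00000074768.6, chr13:93616675-93637961) fell most but rested on few reads, with 42, 64 and 24 counts on day 0 and 12, 6 and 5 counts on day 21. In CPM these were 4.21, 5.28 and 2.47 against 0.848, 0.358 and 0.306, a log2 fold change of -3.0 (SE 0.48, edgeR, adjusted p = 0.000615). In the day-21 libraries 3 counts stand for 0.179 to 0.212 CPM, and mice 2 and 3 lay nearer to that level than mouse 1. Bhmt was the only one of the 47 genes with a mean under 50 counts. Dmgdh, better covered, changed by -2.70, Bhmt2 by -2.26, Cbs by -1.83 and Sardh by -1.36 on the log2 scale. Cth (ENSMUSG00000028179.12, chr3:157894248-157925077), the highest per length of the group at 66.1 CPM per kilobase on day 0, measured 165, 212 and 176 CPM on day 0 and 85.3, 63.2 and 75.3 CPM on day 21, the smallest fall of the 6 (-1.31).

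All 3 genes of proline breakdown were called lower. Prodh, proline dehydrogenase (ENSMUSG00000003526.12, chr16:18060357-18090203), measured 242, 292 and 266 CPM on day 0 and 96.4, 80.1 and 96.0 CPM on day 21, a log2 fold change of -1.55 (SE 0.12, edgeR, adjusted p = 7.66e-06). Aldh4a1, which turns the product into glutamate and had the highest level per length of the 3 (54.4 CPM per kilobase), measured 260, 325 and 216 CPM on day 0 and 95.4, 91.3 and 92.5 CPM on day 21 (-1.52). The days did not overlap for either gene, and Prodh2, the hydroxyproline dehydrogenase, changed by -1.26. Aldh4a1 has 32.5% of its exon bases in Gm21969 on the same strand, which had 0 counts in every mouse.

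The 4 genes of tyrosine breakdown act in a row, and all 4 were called lower. Hpd (ENSMUSG00000029445.13, chr5:123171807-123182727), the dioxygenase that acts on 4-hydroxyphenylpyruvate, had the largest fall of the 47 genes. Its values were 28.1, 64.3 and 36.4 CPM on day 0 and 3.32, 1.37 and 1.04 CPM on day 21, a log2 fold change of -4.52 (SE 0.42, edgeR, adjusted p = 1.91e-05). Those CPM rest on 280, 780 and 353 counts on day 0 and 47, 23 and 17 counts on day 21. Hpd was variable within each day, day-0 mouse 2 and day-21 mouse 1 standing highest, but the lowest day-0 mouse was well above the highest day-21 mouse, and the log2 fold change ran from -5.14 to -4.10 over the 16 alternatives. The later enzymes had log2 fold changes of -1.74 for Hgd, homogentisate dioxygenase, -1.59 for Gstz1, maleylacetoacetate isomerase, and -1.67 for Fah, the hydrolase that ends the pathway. Fah (ENSMUSG00000030630.16, chr7:84585159-84606722), the highest per length of the 4 at 174 CPM per kilobase on day 0, measured 350, 449 and 359 CPM on day 0 and 136, 109 and 119 CPM on day 21. Smaller overlaps with a gene on the other strand hold 15.9% of the exon bases of Bcat2 (0610005C13Rik, log2 fold change -1.73), 12.2% of those of Gstz1 (Pomt2, -0.52, and Gm6566) and 10.4% of those of Psph (Cct6a, -0.21), and their part in the counts was not tested.

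A list of 62 other genes of the same pathways, with lysine and histidine breakdown added, was read beside the 47. Of these 55 could be tested, with a median log2 fold change of -1.10. Among those tested, 40 were called lower (72.7%, against 15.5% of all genes tested) and 5 higher (9.09%, against 19.6%). Agxt, Nags, Tdh, Sds, Mat1a, Tat and Hal had too few counts for a test. The largest falls of single pathways included Aspa (-2.28), which splits N-acetylaspartate, Acat1 (-2.28), a thiolase of isoleucine and ketone metabolism, Mmaa (-0.94), a B12 chaperone of the mutase, Glyctk (-1.81), glycerate kinase, Gnmt (-2.72), glycine N-methyltransferase, L3hypdh (-0.65), a hydroxyproline dehydratase, and Dhtkd1 (-2.11), of lysine breakdown. Mmaa lost its call under library size alone (-0.55), and L3hypdh lost its call in 3 of 16 alternatives, among them without day-21 mouse 2 (-0.57).

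Among the genes of this list called higher were enzymes that make amino acids or free aspartate. Aldh18a1, the first enzyme of proline synthesis from glutamate, measured 3.61, 4.78 and 6.49 CPM on day 0 and 23.2, 20.6 and 16.1 CPM on day 21, a log2 fold change of 2.01 (SE 0.23, edgeR, adjusted p = 7.63e-05). Pycr1, a reductase of proline synthesis, had 2, 9 and 2 counts on day 0 and 22, 18 and 16 counts on day 21 (log2 fold change 1.56, edgeR, adjusted p = 0.0452), and 8 of 15 alternatives ended its call, among them leaving out any mouse except day-0 mouse 2. Not all genes of proline synthesis rose, since the reductase Pycrl was called lower (-0.61, adjusted p = 0.00535 in edgeR). Asns, asparagine synthetase, rose by 1.31 (adjusted p = 0.00082 in edgeR), and Asrgl1, which frees aspartate from asparagine, by 0.97 (adjusted p = 0.00493 in edgeR). Oat, which links ornithine to proline, was not called (-0.11, adjusted p = 0.529 in edgeR).

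**Figure D5:**
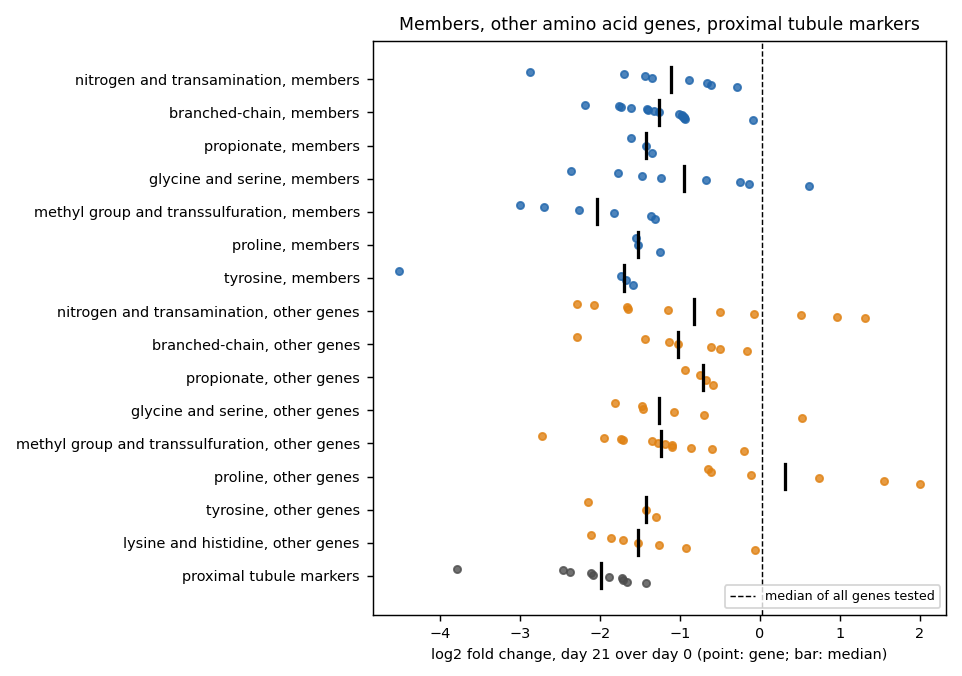
Log2 fold change (day 21 over day 0) of the 47 genes and of the 55 tested genes of the wider list, by pathway, and of the 10 proximal tubule markers. Each point is a gene, each bar a median, and the dashed line the median of all genes tested (0.03). Most points lie below 0, the medians of the 47 run from -2.04 (methyl group and cysteine) to -0.96 (glycine and serine), and the wider proline group has a median of 0.31 with Aldh18a1 at 2.01.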

How the data were processed

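Kidney mRNA of 3 day-0 and 3 day-21 mice was sequenced as paired reads of 150 bases. The authors deposited raw read counts per Ensembl gene, aligned with TopHat to mm10 according to the submitters' processing notes. The counting program and its strand setting are not given in the sources used here. The table held 55450 genes, all matched to GENCODE mouse release 21, and 6 sample columns. Library totals ran from 10963849 to 14333311 counts, at which 3 counts stand for 0.179 to 0.309 CPM.

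Counts were filtered (filterByExpr, minimum count 10, minimum total 15), scaled by TMM and tested with edgeR 4.0.16 (glmQLFit, glmQLFTest) in R 4.3.3 over 16592 genes in a model of day alone. Calls were made at a Benjamini-Hochberg adjusted p below 0.05 when the change also exceeded 1.5-fold. CPM per kilobase divides by the merged exon length. Sums and pairs of genes were compared by two-sided exact permutation tests (scipy 1.17.1), and figures were drawn with matplotlib 3.10.9. Promoters came from RefSeq (GRCm38.p6).

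The 47 genes and the other lists were chosen with earlier results of these data known. Values in every mouse are given, in each role group, for the gene with the largest called rise or fall and the gene with the highest day-0 level per length, for pairs whose log2 fold changes differ by over 1, and for genes called higher or with overlapping groups. Alternatives were RLE, upper quartile and library size scaling, no filter, a mean of at least 50 counts, DESeq2 1.42.0, limma-voom 3.58.1, a replicate block, leaving out each mouse, mitochondrially encoded genes or the 20 highest genes, other thresholds and, for pairs, a pseudocount of 2 in place of 0.5. On simulated counts with 200 changed genes, edgeR recovered 171 at 3-fold with 23 false calls and 125 at 2-fold with 16 false calls. The simulation raised as many genes as it lowered. It changed far fewer than the 2572 genes called lower and 3249 called higher here, so these rates may not hold for the real comparison. No library was a duplicate of another. Protein sequences were not used here, and some genes of the wider list are not reported here.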

Additional observations from a re-analysis of the deposited data

How the results depend on the processing

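The count of genes called lower stayed between 33 and 42 of 47 under all alternatives run, and 33 of the 42 were called lower under every one that tested them. Bhmt, among these 33, was not tested at a mean of at least 50 counts. Over the named fold changes of the 47 genes, 720 values kept direction and call, 22 (10 genes) lost the call and 9 (4 genes, none of them called) changed sign. Scaling by library size alone gave a median of -1.0 for the 47 genes, 1338 genes lower and 5985 higher over all genes, and log2 fold changes of 0.31 for Bcat1, 0.095 for Gpt2, 0.14 for Psph and 0.25 for Shmt1. The count of the 47 genes called higher was 0 with RLE scaling, with DESeq2 and at a stricter threshold (adjusted p below 0.01, change above 2-fold), and ran from 0 to 1 when a mouse was left out. That stricter threshold gave 1254 genes lower and 1918 higher over all genes and 2 genes of the wider list higher. Leaving out a mouse gave between 3 and 5 genes of the wider list higher.

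Bcat1 was at 0.12 with limma-voom and at 0.085 with the replicate block. Without a single mouse it ran from -0.50 to 0.21, with positive values of 0.21 and 0.093 without day-0 mouse 2 or 3 and 0.0039 without day-21 mouse 2. Bckdha minus Bckdhb was -0.024 with a pseudocount of 2 and ran from -0.071 to 0.17 without a single mouse, with -0.0 without day-0 mouse 2. Bhmt minus Bhmt2 was 0.95 with a pseudocount of 2 and ran from -0.25 to 0.40 without a single mouse, with -0.059 without day-21 mouse 2. The causes were not tested.

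Deviations from the group mean correlated at -0.019, 0.165 and 0.09 over 16592 genes between mice of different days with the same number. Between mice with different numbers the correlations ran from -0.181 to 0.116. With 3 mice per group these values cannot decide whether mice with the same number shared a batch. With the replicate block 42 of the 47 genes were lower and 1 higher, and of the named genes the block ended the call of Pycr1 alone. Depth limits Bhmt, Pycr1 and the day-21 values of Hpd, which rest on few counts.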
